A study of Mus musculus with 12 samples.

Results

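The genes described here encode 10 acute-phase proteins of the mouse: the serum amyloid A proteins Saa1, Saa2 and Saa3, the fibrinogen chains Fga, Fgb and Fgg, haptoglobin (Hp), the orosomucoids Orm1 and Orm2, and the lipopolysaccharide-binding protein Lbp. They were found by the gene name printed in the scanner files, with control spots left out, which gave 11 probes of 60 bases (2 for Fga) out of 56605 probes in all. All 10 genes passed the filter on dim probes and are among the 25947 genes tested. The arrays were hybridised with RNA from whole kidneys of male mice, and the study compared Jaml knockout (KO) with wild-type (WT) mice after renal ischemia-reperfusion injury (IRI) or a sham operation. The 4 groups were KO IRI, KO sham, WT IRI and WT sham, with 3 arrays each.

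In both IRI groups the blood flow of both kidneys was stopped and then restored, and the kidneys were taken 24 h later. The length of ischemia is stated in conflicting ways, as 40 min under clamps in the series text and as 30 min under ligatures in the treatment protocol. The Jaml deletion was made on a C57/6J background, and the labels name no tissue-restricted Cre, deleted exon, age or littermate status. Samples of a group are described as independent in the series text, and each array was counted as a separate mouse.

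Acute-phase proteins are plasma proteins whose levels change during injury, infection and inflammation. The liver makes most of them, under interleukin-6 signalling through STAT3 and interleukin-1 signalling through NF-kB and C/EBP factors, but injured epithelium also transcribes several, and tubule cells of the injured rodent kidney are known to make fibrinogen chains. Serum amyloid A proteins travel on high-density lipoprotein, fibrinogen is cut by thrombin to form the fibrin clot, haptoglobin binds free hemoglobin, orosomucoids carry lipophilic compounds, and Lbp hands bacterial lipopolysaccharide to CD14.

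The genes lie in compact clusters, and some are close copies of each other. In the files' mm9 coordinates the 3 serum amyloid probes lie within 42 kb of chromosome 7, the probes of the 3 fibrinogen chains within 27.6 kb of chromosome 3, and the orosomucoid probes within 17.6 kb of chromosome 4. The Hp probe is on chromosome 8 and the Lbp probe on chromosome 2. No mm9 gene annotation was used, so exon and intron positions are not given. RefSeq promoter windows of build GRCm38.p6 were matched for 7 of the 10 genes, and Hp, Orm1 and Lbp were not matched. The table gives 1 start for each of these genes, and other starts were not searched. For Saa1 and Saa3 that start lies inside the annotated gene, which reaches further upstream, so their windows overlap the gene and are not shown. The 250 bases before the listed start of Saa2 and of the fibrinogen genes are shown because members of each cluster moved together from array to array, as given below; capitals mark the letters TTGCNNAA (C/EBP), TTCNNNGAA (STAT) and CTGGGA (interleukin-6 response element), searched on both strands.
Saa2 promoter, chr7:46751583-46751832, plus strand: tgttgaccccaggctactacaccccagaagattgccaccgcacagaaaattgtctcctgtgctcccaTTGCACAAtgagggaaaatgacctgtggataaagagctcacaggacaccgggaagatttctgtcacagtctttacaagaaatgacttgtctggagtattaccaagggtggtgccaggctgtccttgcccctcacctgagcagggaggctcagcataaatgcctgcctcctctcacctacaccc
Fga promoter, chr3:83025903-83026152, plus strand: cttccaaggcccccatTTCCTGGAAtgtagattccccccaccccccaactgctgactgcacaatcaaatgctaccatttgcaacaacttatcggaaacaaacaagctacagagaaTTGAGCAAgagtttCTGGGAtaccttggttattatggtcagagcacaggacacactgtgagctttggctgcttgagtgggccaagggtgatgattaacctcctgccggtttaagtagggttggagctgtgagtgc
Fgb promoter, chr3:83049864-83050113, minus strand: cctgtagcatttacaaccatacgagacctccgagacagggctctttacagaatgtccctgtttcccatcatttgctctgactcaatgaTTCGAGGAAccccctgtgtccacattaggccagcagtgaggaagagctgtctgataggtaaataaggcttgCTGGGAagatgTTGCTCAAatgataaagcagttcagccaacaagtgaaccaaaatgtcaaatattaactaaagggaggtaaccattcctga
Fgg promoter, chr3:83007474-83007723, plus strand: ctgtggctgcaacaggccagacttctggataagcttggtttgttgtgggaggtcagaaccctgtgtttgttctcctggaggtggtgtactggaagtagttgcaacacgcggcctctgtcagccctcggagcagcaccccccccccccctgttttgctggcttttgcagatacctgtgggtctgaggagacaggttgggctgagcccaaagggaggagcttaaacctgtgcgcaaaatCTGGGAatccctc

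The Saa1 and Saa2 windows were identical at 94.8% of 251 aligned positions, whereas Saa1 and Saa3 matched at 48.5%. Both Saa1 and Saa2 carried TTGCACAA, which starts 182 bases before the listed start of Saa1 and 183 bases before that of Saa2. The C/EBP letters were found in 6 of the 7 windows (Saa1, Saa2, Saa3, Fga, Fgb and Orm2), against 9.56% of all 32851 RefSeq windows. CTGGGA was found in the 3 fibrinogen windows only, among the 7 searched, and in 27% of all windows. The STAT letters were found in Fga (TTCCTGGAA) and Fgb (TTCGAGGAA), and in 7.02% of all windows. None of the 7 windows held the letters searched for the NF-kB motif (in 0.356% of all windows) or the HNF1 motif (in 0.371%). In the Fga and Fgb windows no marked letters overlapped one another. These are matches of letters and show neither binding nor use of a site.

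Some readings rest on the probe itself, so the probes on which the orosomucoid, Saa3 and Fga results turn are shown in the files' orientation, in lower case with no part marked.
Saa3 probe: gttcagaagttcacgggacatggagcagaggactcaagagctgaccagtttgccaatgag
Fga probe 1: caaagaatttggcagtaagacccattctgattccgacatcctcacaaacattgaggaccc
Fga probe 2: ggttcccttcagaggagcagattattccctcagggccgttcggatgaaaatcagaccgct
Orm1 probe: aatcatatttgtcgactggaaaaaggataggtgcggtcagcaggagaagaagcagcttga
Orm2 probe: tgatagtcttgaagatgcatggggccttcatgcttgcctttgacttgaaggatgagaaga

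The accessions listed for the Orm1 probe include both Orm1 and Orm2, so its signal cannot be given to Orm1 alone. Saa1 and Saa2 are also close copies, and how far each probe reads the other transcript was not tested. Levels below are log2 of the background-corrected signal minus the 75th percentile of the array, so 0 is the brightness that 75% of that array's probes stay under. They compare arrays for 1 probe, not probes with each other. In whole kidney RNA, a change in the number of cells of a type cannot be told apart from a change in RNA per cell.

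Jaml, the deleted gene, read -1.89, -2.70 and -3.0 on the KO IRI arrays, -3.54, -2.59 and -3.18 on the KO sham arrays, 0.55, -1.80 and -1.64 on the WT IRI arrays, and -0.26, -0.26 and -0.44 on the WT sham arrays. It was lower in KO sham than in WT sham (log2 -2.79 ± 0.56, SE; adjusted p = 0.0152, limma), and KO IRI differed from WT IRI by -1.57 ± 0.56 (adjusted p = 0.1532). The probe was well above background on all 12 arrays, and the sources used here do not place it relative to the deletion. All 6 KO arrays were on slide 2 and all 6 WT arrays on slide 1, each slide with its own scan, so genotype and slide cannot be told apart in any KO over WT difference. Between 62.89% and 68.05% of probes were well above background on each array. WT IRI replicate 1 stood farthest from its group, with a root mean square deviation of 0.5785 log2 units, compared with 0.205 to 0.433 elsewhere, and WT sham replicate 3 carried high fibrinogen and serum amyloid signals, as given below. The kidney epithelium markers averaged between 4.66 and 5.44 on every array, and all 10 of them were above background.

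**Figure D1:**
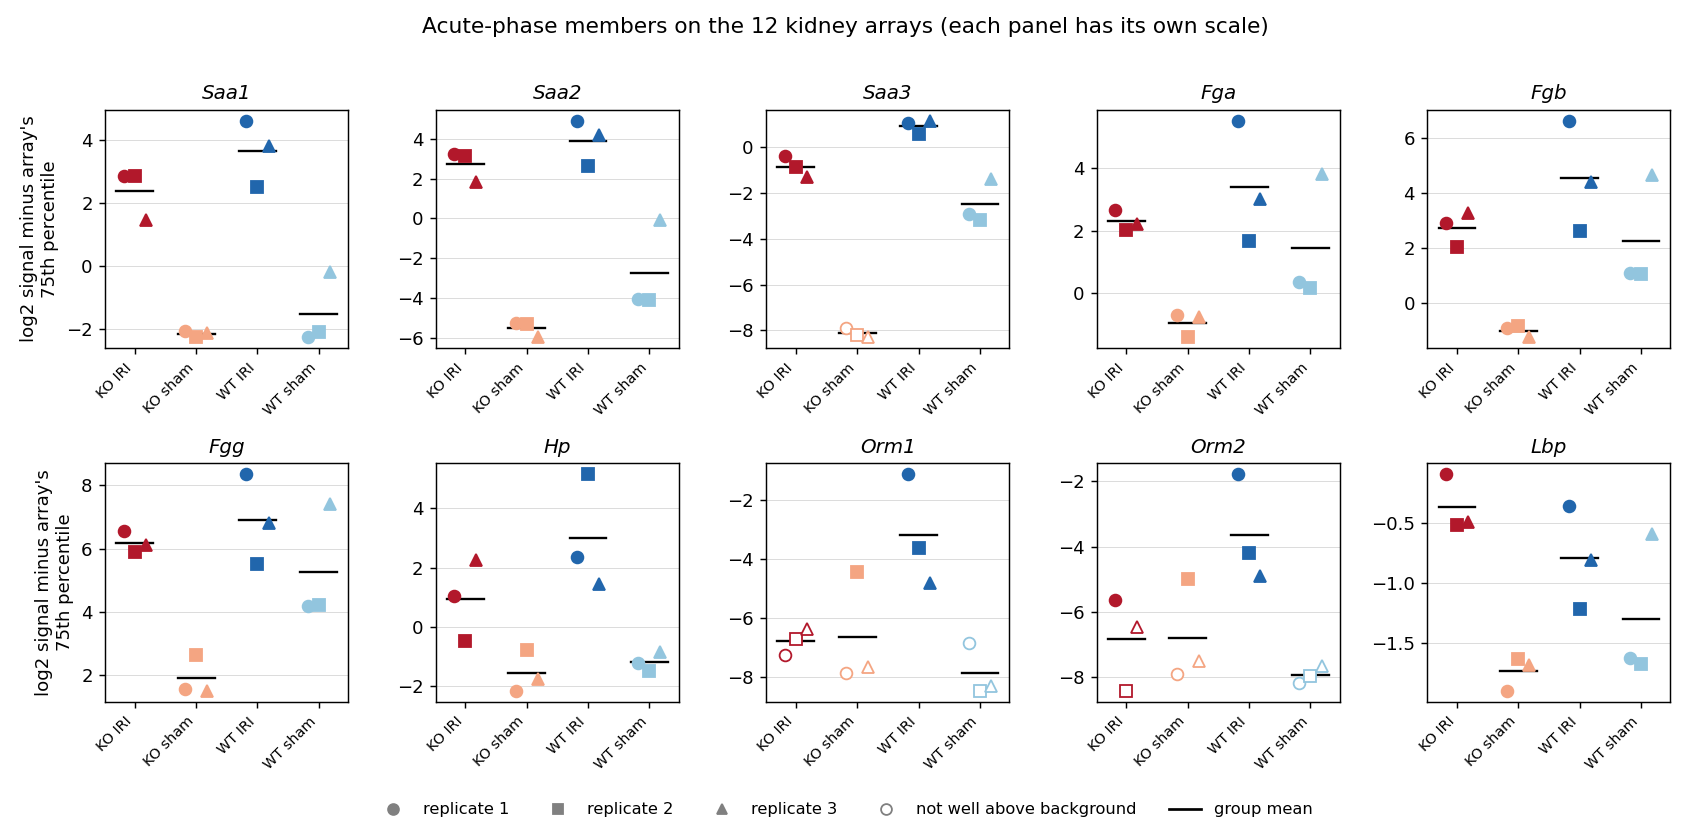
Log2 level (vertical axis, signal relative to the array's 75th percentile) of each of the 10 genes on the 12 arrays, with groups in the order KO IRI, KO sham, WT IRI, WT sham. Filled points are well above background, open points are not, marker shapes give the replicate number and bars the group means; Saa3 is open on all 3 KO sham arrays, and the WT sham replicate 3 triangle stands above the other WT sham points for the serum amyloid and fibrinogen genes.

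Serum amyloid genes rose after IRI in both genotypes. Saa1 read 2.86, 2.85 and 1.45 in KO IRI, against -2.09, -2.26 and -2.16 in KO sham. It read 4.62, 2.51 and 3.82 in WT IRI, against -2.28, -2.10 and -0.19 in WT sham. The injured and sham arrays did not overlap in either genotype, and the 3 KO sham arrays lay within 0.169 log2 units of each other. Saa1 rose by 4.56 ± 0.65 on the log2 scale in KO kidneys (SE, n = 3 each; adjusted p = 0.005189, limma) and by 5.17 ± 0.65 in WT kidneys (adjusted p = 0.002394, limma). These calls remained in each of the 24 other fits tried for each genotype, of which the slide as a block repeats the main fit by construction.

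Saa2, the second acute-phase isoform carried by high-density lipoprotein, read 3.21, 3.15 and 1.82 in KO IRI, against -5.22, -5.31 and -5.95 in KO sham. In WT IRI it read 4.90, 2.63 and 4.17, against -4.01, -4.07 and -0.07 in WT sham. Here WT sham replicate 3 was 4.0 log2 units above the lowest WT sham array but still below every WT IRI array. Saa2 rose by 8.22 ± 0.99 in KO (adjusted p = 0.003375, limma) and by 6.62 ± 0.99 in WT (adjusted p = 0.004946, limma). The WT call was lost when only the 2 WT groups were fitted (adjusted p = 0.06045, limma).

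Saa3, which in mice is made mainly outside the liver, by macrophages, adipose tissue and epithelia, was not well above background in KO sham kidneys. Its processed signal was 639.9, 449.9 and 326.6 in KO IRI, against 2.852, 2.322 and 2.401 in KO sham, below that mark on all 3 arrays. In WT IRI it was 1470, 1456 and 1743, against 123, 85.15 and 281.1 in WT sham, where all 3 arrays were above background. On the log2 scale these are -0.36, -0.88 and -1.28 in KO IRI and -7.89, -8.19 and -8.30 in KO sham, and 1.07, 0.59 and 1.16 in WT IRI and -2.92, -3.16 and -1.40 in WT sham. No array of one group fell inside the range of another, with WT IRI highest, then KO IRI, WT sham and KO sham.

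Saa3 rose in WT kidneys by 3.43 ± 0.41 (SE, n = 3 each; adjusted p = 0.002001, limma). In KO kidneys it was at least 32.3-fold higher after IRI (adjusted p = 0.0001503, limma), a bound set by the dimmest probes that count as above background on the KO sham arrays. Without injury Saa3 was at least 10.3-fold lower in KO than in WT (adjusted p = 0.001149, limma). After IRI the KO arrays were lower by 1.78 ± 0.41 log2 units, with no overlap (adjusted p = 0.06154, limma). The fitted KO response exceeded the WT response by 3.86 ± 0.59 (adjusted p = 0.06703, limma), but that value contains the dim KO sham group. With normexp background correction, which raises dim signals by an offset of 50, the fitted KO response was 2.84 and the difference of responses was -0.08 (adjusted p = 0.9457, limma), and KO sham over WT sham was -1.55 (adjusted p = 0.01308, limma). The Saa3 calls for IRI in each genotype and for KO sham over WT sham remained in every other fit tried, whereas the size of the KO differences depended on the treatment of dim signals.

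The fibrinogen chain genes moved together from array to array. Fga encodes the alpha chain, and the brighter of its 2 probes read 2.67, 2.02 and 2.21 in KO IRI, against -0.70, -1.43 and -0.77 in KO sham. It read 5.54, 1.67 and 3.03 in WT IRI, against 0.36, 0.16 and 3.83 in WT sham. Fgb, the beta chain, read 2.90, 2.03 and 3.27 in KO IRI, against -0.93, -0.87 and -1.26 in KO sham. The KO groups were thus well separated for both chains.

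In WT IRI, Fgb read 6.63, 2.62 and 4.39, against 1.07, 1.04 and 4.66 in WT sham. Fgg, the gamma chain, read 6.56, 5.90 and 6.10 in KO IRI, against 1.57, 2.63 and 1.52 in KO sham. It read 8.35, 5.53 and 6.82 in WT IRI, against 4.18, 4.21 and 7.42 in WT sham. In all 3 chains WT IRI replicate 1 was the highest of the 12 arrays and WT sham replicate 3 was above WT IRI replicates 2 and 3, so the WT groups overlapped while the KO groups did not.

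Fgg rose after IRI in KO kidneys by 4.28 ± 0.89 (SE, n = 3 each; adjusted p = 0.02189, limma). Fga differed by 3.26 ± 1.05 (adjusted p = 0.103, limma) and Fgb by 3.75 ± 1.08 (adjusted p = 0.07041, limma), both short of the threshold. In WT kidneys no chain passed the test: Fga differed by 1.96 ± 1.05 (adjusted p = 0.2467), Fgb by 2.29 ± 1.08 (adjusted p = 0.1887) and Fgg by 1.63 ± 0.89 (adjusted p = 0.2556, limma). Without WT sham replicate 3, Fgb differed by 3.50 (adjusted p = 0.04355) and Fgg by 2.70 (adjusted p = 0.03979, limma) in WT kidneys, and both passed. Without WT sham replicate 3 and WT IRI replicate 1 together, a pair chosen after seeing the data, all 3 chains passed in WT (Fga 2.09, adjusted p = 0.02023; Fgb 2.45, 0.02703; Fgg 1.98, 0.03484, limma). In KO kidneys the omission of WT sham replicate 3, which changes the shared spread, brought Fga to adjusted p = 0.04073 and Fgb to 0.02872 (limma). Leaving out WT IRI replicate 1 also brought both past the threshold in KO (Fga 0.04019, Fgb 0.02939, adjusted p, limma), as did leaving out WT IRI replicate 2 for Fgb (0.04506). The Fgg call in KO was lost without KO sham replicate 1 or 3 or without any 1 of the 3 KO IRI replicates, with adjusted p of at most 0.08419.

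Between the sham groups Fgg was lower in KO than in WT by -3.36 ± 0.89 log2 units (adjusted p = 0.0438, limma), and this call was lost in 14 of 23 other fits, 1 of them without WT sham replicate 3 (-2.29, adjusted p = 0.09526). Fgb differed by -3.27 ± 1.08 (adjusted p = 0.08972, and 0.03966 without WT IRI replicate 1) and Fga by -2.42 (adjusted p = 0.1894, limma). For each of the 3 chains, Fga by its brighter probe, every KO sham array was below every WT sham array. By the second Fga probe the sham groups overlapped, with a KO over WT difference of -1.735 ± 1.25 (adjusted p = 0.4736, limma, over all kept probes). After IRI the KO over WT differences were -1.11 for Fga, -1.81 for Fgb and -0.71 for Fgg, with overlapping groups and adjusted p from 0.3446 to 0.6626 (limma). The second Fga probe, which reads another stretch of the gene, gave a KO difference after IRI of 1.76 ± 1.25 (adjusted p = 0.4836, limma, over all kept probes), and had the same 2 high WT arrays, at 3.45 on WT IRI replicate 1 and 1.95 on WT sham replicate 3.

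**Figure D2:**
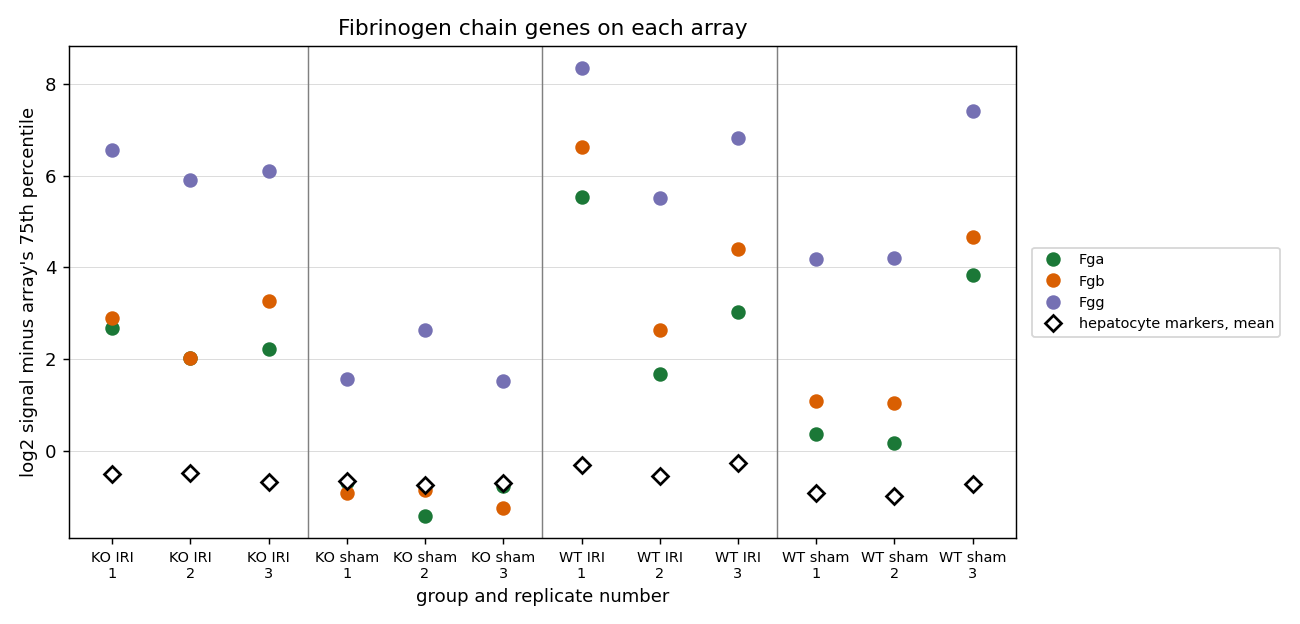
Log2 level (vertical axis) of Fga, Fgb and Fgg on each array, with the mean of 15 hepatocyte markers as open diamonds. The 3 chains are high together on WT IRI replicate 1 and WT sham replicate 3. The hepatocyte mean lies between -1.0 and -0.26 on all 12 arrays. It is -0.74 on WT sham replicate 3 (-0.93 and -1.0 on the other WT sham arrays). On WT IRI replicate 1 it is -0.32 (-0.55 and -0.26 on the other WT IRI arrays).

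Liver cells are the main source of plasma fibrinogen, so hepatocyte markers were read beside the chains. The mean level of the 15 markers ranged from -0.70 to -0.49 in KO IRI, from -0.76 to -0.68 in KO sham, from -0.55 to -0.26 in WT IRI and from -1.0 to -0.74 in WT sham, and their summed linear level from 128.1 to 174.6, 114.4 to 126.2, 141.6 to 160.6 and 100.4 to 128.4 in the same groups. Of the 15 markers 8 also stand in the acute-phase lists below. Of all 15, 4 rose and 2 fell after IRI in KO, and 4 rose and none fell in WT. Those that rose in KO were Apoh (1.95), Fgl1 (1.93), Apoa1 (1.79) and Apoc3 (1.72). In WT they were Fgl1 (2.11), Apoc3 (1.39), Apoa1 (1.15) and Hpx (0.74). Between 13 and 15 of the 15 markers were well above background on each array. Kng1 read 6.07 to 6.56 and Apoc3 2.17 to 5.19 across the arrays. The liver genes Ahsg and Cps1 were dim and read at most -5.53 and -5.54 on any array, where the detection limit was -6.38 to -5.60. With 1 array left out, the count that rose ranged from 1 to 4 in KO and from 0 to 4 in WT. WT IRI replicate 1 was the highest of its group for 8 of the 15 and WT sham replicate 3 for 9 of the 15. On WT sham replicate 3 Fgl1 read 2.03 (0.98 and 1.36 on the other WT sham arrays), Apoc3 4.03 (3.15 and 3.16) and Alb, which encodes albumin, -1.05 (-1.30 and -1.20), whereas Ttr read 2.48 (3.12 and 3.17). Of 7 platelet markers tested, none rose in either genotype and F5, coagulation factor V, fell in KO (-1.37 ± 0.22, adjusted p = 0.00908, limma). WT IRI replicate 1 was the highest of its group for 4 of the 7 and WT sham replicate 3 for 3, and Gp9, Ppbp and Treml1 were highest on both. These 3 read -3.50, -1.61 and -2.94 on WT IRI replicate 1, and -4.26, -2.57 and -3.76 on WT sham replicate 3. The part of either cell type in the fibrinogen readings was not tested.

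Haptoglobin rose after IRI in WT kidneys and was unevenly high within the group. Hp read 1.04, -0.48 and 2.27 in KO IRI, against -2.18, -0.79 and -1.79 in KO sham. In WT IRI it read 2.36, 5.16 and 1.44, against -1.25, -1.49 and -0.86 in WT sham. The injured arrays lay above the sham arrays in both genotypes, by a narrow gap in KO. Hp rose by 4.19 ± 0.91 in WT (SE, n = 3 each; adjusted p = 0.01866, limma), a call lost without WT sham replicate 1 (0.06706) or 2 (0.06874) and when only the 2 WT groups were fitted (0.07907). In KO the difference was 2.53 ± 0.91 (adjusted p = 0.1419, limma), and without WT IRI replicate 2, which changes the shared spread, it passed at 0.04565. The KO over WT differences were -2.05 after IRI (adjusted p = 0.226) and -0.38 in the sham state (adjusted p = 0.8493, limma).

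The orosomucoid probes were dim except in WT IRI. The Orm1 signal was 5.39, 8.0 and 9.68 in KO IRI, against 2.916, 31.17 and 3.802 in KO sham, and only KO sham replicate 2 was above background. It was 323.8, 78.08 and 27.66 in WT IRI, all above background, against 8.137, 2.153 and 2.389 in WT sham, where none was. The Orm2 signal was 16.63, 2.423 and 8.938 in KO IRI, with replicate 1 alone above background, against 2.806, 21.36 and 4.192 in KO sham, with replicate 2 alone above background. It was 204.8, 52.99 and 25.93 in WT IRI, all above background, against 3.199, 3.046 and 3.662 in WT sham, where none was. WT IRI replicate 1 was the highest array for both probes.

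Orm1 was at least 7.08-fold higher after IRI in WT kidneys (adjusted p = 0.02046, limma) and Orm2 at least 5.22-fold higher (adjusted p = 0.02194, limma). In KO kidneys neither passed the test (adjusted p = 0.9645 for Orm1 and 0.9885 for Orm2, limma), and at most 1 array of each KO group was above background. The WT calls were lost under normexp background correction (1.39, adjusted p = 0.05835 for Orm1, and 1.14, adjusted p = 0.06087 for Orm2, limma). The Orm1 call was also lost without WT sham replicate 2 (0.07635) or 3 (0.05078), and the Orm2 call without WT sham replicate 1 (0.07789) or 2 (0.07115). Both were lost when only the 2 WT groups were fitted (Orm1 0.07519, Orm2 0.06038) and without WT sham replicate 3 and WT IRI replicate 1 together (Orm1 0.07886, Orm2 0.06895, adjusted p, limma). After IRI the KO arrays were lower than all WT arrays for both probes, at least 8.06-fold for Orm1 (adjusted p = 0.1038) and by -3.21 ± 0.98 log2 units for Orm2, with 1 of 3 KO IRI arrays above background (adjusted p = 0.1153, limma). Neither passed the threshold. The difference between the KO and WT responses did not pass either (adjusted p = 0.3614 for Orm1 and 0.3714 for Orm2, limma), and its size is not given because it contains groups not above background.

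**Figure D3:**
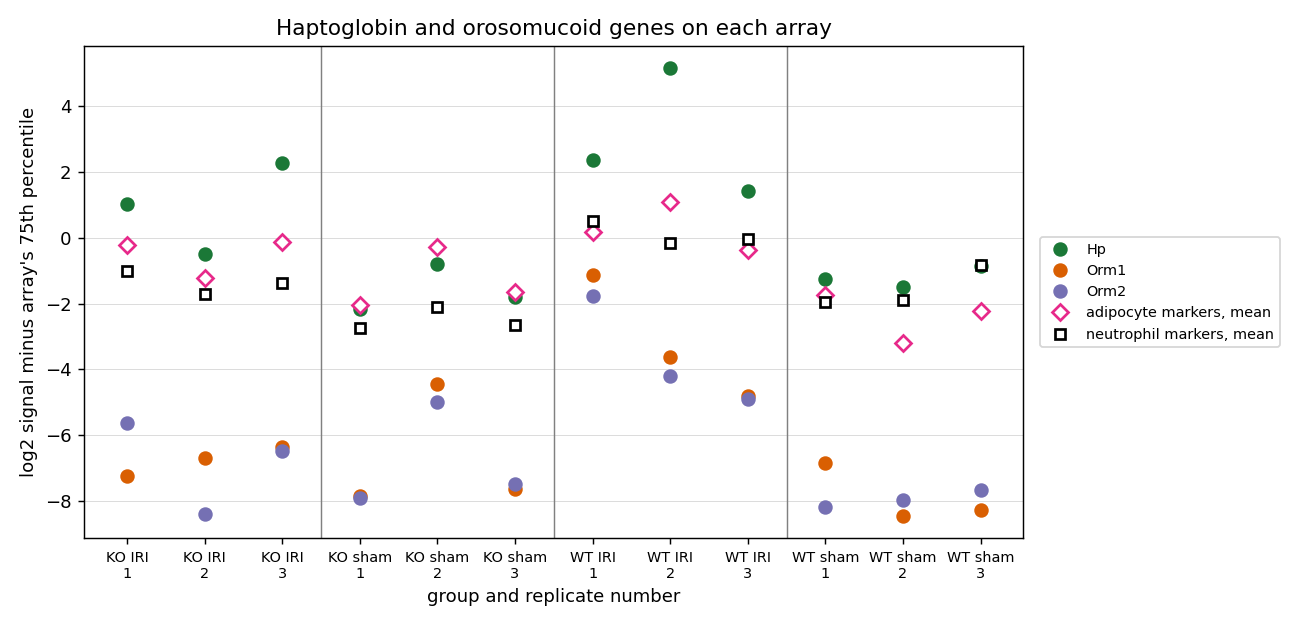
Log2 level (vertical axis) of Hp, Orm1 and Orm2 on each array, with the means of 9 adipocyte and 11 neutrophil markers as open symbols. Hp and the adipocyte mean are highest on WT IRI replicate 2, and Orm1, Orm2 and the adipocyte mean are the highest of the KO sham group on replicate 2.

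Hp and the orosomucoids are also made in adipose tissue and leukocytes, so those markers were read on the same arrays. The adipocyte mean was -0.21, -1.23 and -0.12 in KO IRI, against -2.03, -0.26 and -1.63 in KO sham. It was 0.17, 1.09 and -0.36 in WT IRI, against -1.72, -3.19 and -2.21 in WT sham. Adipoq, the adipocyte hormone adiponectin, read 0.30 on WT IRI replicate 2 and -1.20 on KO sham replicate 2, the highest arrays of their groups for this marker and for Hp. In KO IRI both were highest on replicate 3, whereas in WT sham Adipoq was highest on replicate 1 and Hp on replicate 3. WT IRI replicate 2 was the highest of its group for 7 of the 9 adipocyte markers. It was the lowest for 2, Cidec (2.69, against 3.60 and 3.03) and Plin4 (1.37, against 3.35 and 2.35). KO sham replicate 2 was the highest of its group for 8 and the lowest for 1. Of 9 adipocyte markers, 2 rose in KO (Plin4 3.98 ± 0.51 and Cidec 2.89 ± 0.51) and 4 rose in WT (Cidec 5.64 ± 0.51, Plin4 3.60 ± 0.51, Fabp4 1.40 ± 0.26 and Plin1, at least 18.2-fold), with adjusted p from 0.000492 to 0.012 (limma). Plin1, Plin4 and Cidec encode lipid droplet proteins.

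The summed linear level of the adipocyte markers was 35.46 to 37.54 in KO IRI, against 16.73 to 25.28 in KO sham, and 37.24 to 73.63 in WT IRI, against 12.38 to 15.02 in WT sham. For the neutrophil markers it was 43.22 to 74.85 in KO IRI, against 59.66 to 78.16 in KO sham, and 112.3 to 122.6 in WT IRI, against 61.17 to 90.45 in WT sham. The brightest probe weighs most in such a sum, here Csf3r, which read 5.22 to 6.26 across the arrays. The neutrophil mean log2 level was -1.71 to -1.02 in KO IRI, against -2.73 to -2.09 in KO sham, without overlap. In WT IRI that mean was -0.16 to 0.52, against -1.96 to -0.84 in WT sham. Of 11 neutrophil markers, 2 rose in KO and 5 rose and 1 fell in WT. With 1 array left out, the count that rose ranged from 1 to 3 in KO and from 2 to 5 in WT. WT IRI replicate 1, the array with the highest orosomucoid signals, was the highest of its group for 5 of the 11 and the lowest for 3. The granule genes Camp and Ltf read 0.01 and -0.57 there and at most -3.50 and -3.84 on every other array, whereas Cxcr2, a chemokine receptor, read -4.11 there against -1.95 and -2.30. WT sham replicate 3 was the highest of its group for 10 of the 11. Without KO sham replicate 2 and WT IRI replicate 2 together, a pair chosen after seeing the data, Hp differed by 3.10 in WT (adjusted p = 0.02289, limma), and the adjusted p was 0.01575 for Orm1 and 0.02035 for Orm2. The part of adipocytes or neutrophils in these readings was not tested.

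Lbp rose after IRI in KO kidneys. It read -0.10, -0.52 and -0.49 in KO IRI, against -1.89, -1.63 and -1.68 in KO sham, with no overlap. It read -0.36, -1.22 and -0.81 in WT IRI, against -1.63, -1.67 and -0.59 in WT sham, where replicate 3 lay among the injured arrays. Lbp rose by 1.36 ± 0.30 in KO (SE, n = 3 each; adjusted p = 0.02755, limma), a call lost when any 1 of the 6 KO arrays was left out (adjusted p up to 0.103). In WT it differed by 0.50 ± 0.30 (adjusted p = 0.301, limma).

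Counted together, 5 of the 10 genes rose and none fell after IRI in KO kidneys (Saa1, Saa2, Saa3, Fgg and Lbp), where 6.16% of all genes were called and 2.1% were called higher. In WT kidneys 6 rose and none fell (Saa1, Saa2, Saa3, Hp, Orm1 and Orm2), where 12% of all genes were called and 6.08% were called higher. Orm1 and Orm2 passed the filter on dim probes only through the WT IRI arrays, where they were high. Their calls and their lack of overlap in WT are thus not independent of the filter. The median difference of the 10 was 3.51 in KO and 3.81 in WT, against -0.082 and -0.00572 over all genes. With genes of a group not above background set at their bound, or at 0 where no fold could be given, it was 3.51 in KO and 2.60 in WT. Over all genes in KO, 546 were called higher and 1052 lower, and quantile normalization gave 805 higher and 819 lower. The groups did not overlap for 8 of the 10 in KO, all with IRI higher, against 13.9% of all genes, and for 6 of the 10 in WT, against 17.2% of all genes. The count of members called in KO was 3 without KO sham replicate 1 or 3 or any KO IRI replicate, where 454 to 1024 of all genes were called. It was 7 without WT sham replicate 3, WT IRI replicate 1 or WT IRI replicate 2, where 1604 to 3252 were called. In WT, leaving out 1 WT sham array gave 4 (replicate 1), 3 (replicate 2) or 7 (replicate 3). Of all genes 861, 846 and 2445 were called in these 3 fits.

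Between the sham groups 2 of the 10 genes were lower in KO than in WT (Saa3 and Fgg), none was higher, and 8.85% of all genes were called, 3.73% as lower. Every KO sham array was below every WT sham array for 5 genes (Saa2, Saa3, Fga by its brighter probe only, Fgb and Fgg), against 12.2% of all genes. Over all genes 1329 were called higher and 968 lower, against 828 and 1093 with quantile normalization. The median over all genes was 0.125, and that of the 10 was -1.53. Saa2 differed by -2.78 ± 0.99 (adjusted p = 0.112), Saa1 by -0.65 (0.5989), and Lbp by -0.44 (0.4212, adjusted p, limma). For Orm1 and Orm2 no WT sham array and 1 of 3 KO sham arrays were above background, so no fold is given (adjusted p = 0.53 and 0.5328, limma). The sham comparison shares its arrays with the IRI comparisons, so a low KO sham level also enters the KO response.

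After IRI none of the 10 passed the test between KO and WT, and 1.93% of all genes were called (limma). Those were 236 higher and 265 lower, against 67 and 265 with normexp correction. For Saa3, Orm1 and Orm2 every KO IRI array was below every WT IRI array, against 9.45% of all genes. Of these, Orm1 and Orm2 passed the filter on dim probes only through the WT IRI arrays. Saa1 differed by -1.26 (adjusted p = 0.2806), Saa2 by -1.17 (0.5057) and Lbp by 0.43 (0.4245). Without WT sham replicate 3 Saa3 passed (adjusted p = 0.01278, limma). In the test of the difference between the KO and WT responses none of the 10 was called, and 0.0694% of all genes were called (limma). Saa3 alone passed that test in some fits, among them the fits without WT sham replicate 3 (0.0161) and without WT IRI replicate 1 (0.04034).

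**Figure D4:**
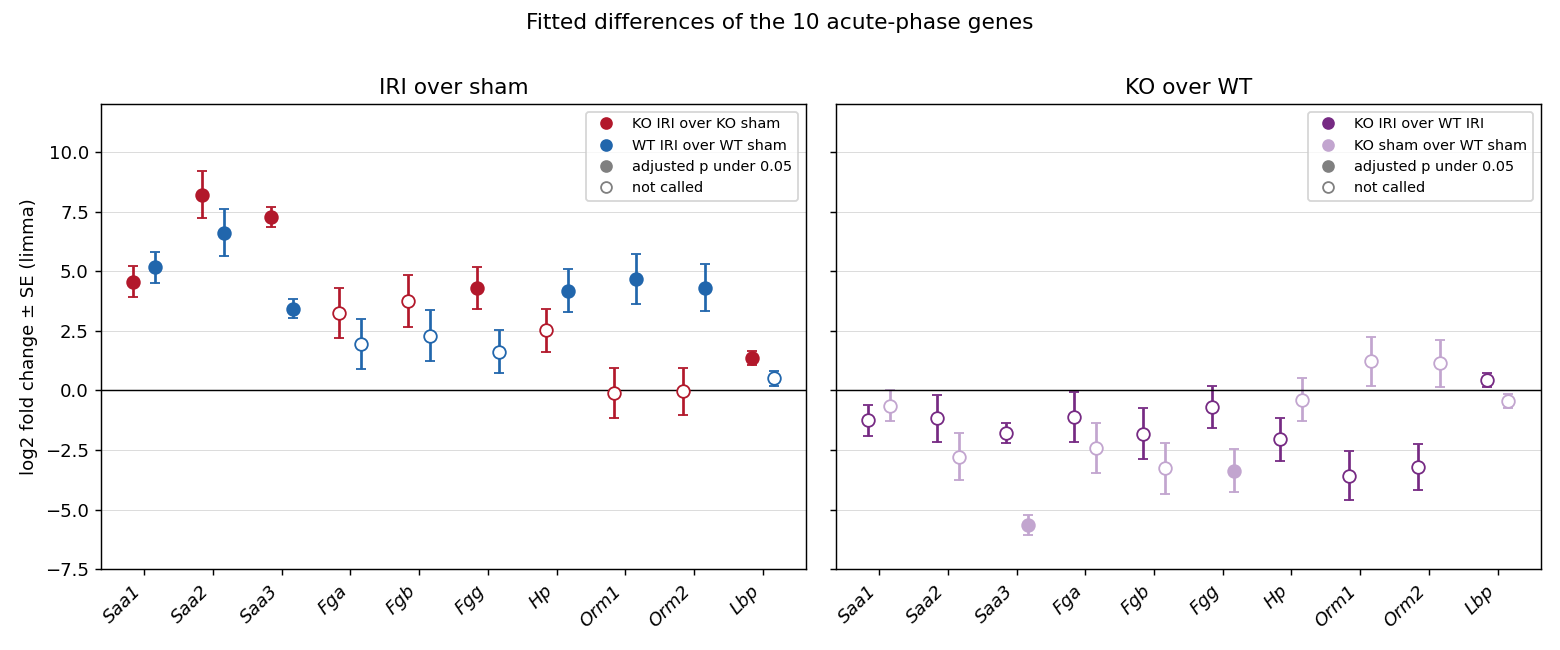
Fitted log2 differences with their SE (vertical axis, limma, 3 arrays a group) for IRI over sham in each genotype (left) and KO over WT in each state (right), filled where the adjusted p is under 0.05. Fitted values of Saa3 in KO sham and of the orosomucoids outside WT IRI include signals not above background; Fgg and Lbp are filled for KO IRI over sham, and Hp, Orm1 and Orm2 for WT IRI over sham.

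The upstream signalling genes include the cytokines and factors named above. Of 21 inducer and signalling genes tested, 1 rose and none fell after IRI in KO, namely the interleukin-1 receptor Il1r1 (0.49 ± 0.12, adjusted p = 0.0378, limma). In WT 6 rose and none fell: Il6 (5.54 ± 1.29), Il11 (4.05 ± 1.03), Socs3, which dampens STAT3 signalling (3.27 ± 0.63), Lif (2.97 ± 0.71), Il1b (1.71 ± 0.48) and Il1r1 (0.49 ± 0.12), with adjusted p from 0.0129 to 0.0452 (limma). Leaving out 1 array moved the WT count between 0 and 6. Il6 read -7.26, -8.39 and -2.93 in KO IRI, against -7.87, -8.20 and -8.30 in KO sham, where it was above background on 1 and on 0 arrays. In WT IRI it read -2.53, -0.11 and -0.18, against -5.45, -5.69 and -8.28 in WT sham. WT IRI replicate 1 was the highest of its group for 16 of the 21 and the lowest for 5, Il6 among them, and it was the highest of all 12 arrays for 13. WT sham replicate 3 was the highest of its group for 13 of the 21. On WT IRI replicate 1 Socs3 read 5.12 (2.76 and 2.83 on the other WT IRI arrays) and Cebpd, a C/EBP factor, 6.56 (3.60 and 3.95).

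Lif read -6.54, -8.40 and -5.15 in KO IRI, against -2.95, -3.61 and -3.10 in WT IRI, and was lower in KO (-3.48 ± 0.71, adjusted p = 0.0397, limma), with 1 of 3 KO IRI arrays above background. It was the only one of the 21 called between the injured groups. Among the sham arrays Bcl3 (-1.77 ± 0.39) and Nfkbia (-1.22 ± 0.23), regulators of NF-kB, were lower in KO and Tnf was higher (0.65 ± 0.14), with adjusted p from 0.0133 to 0.0235 (limma).

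Of 23 other positive acute-phase genes tested, 6 rose and 1 fell after IRI in KO, and 12 rose and 1 fell in WT. In KO these were Lcn2, the iron-siderophore carrier neutrophil gelatinase-associated lipocalin (5.64 ± 0.41), Serpina3n (5.15 ± 0.83), Lrg1 (4.04 ± 0.50), C3 (3.20 ± 0.49), Fgl1 (1.93 ± 0.46) and Saa4, at least 8.14-fold higher, while Apcs, serum amyloid P, fell (-1.84 ± 0.31). In WT the 6 with the largest fitted change were Lcn2 (5.27 ± 0.41), Lrg1 (4.91 ± 0.50), Serpina3m (4.02 ± 0.52), Serpina3n (3.70 ± 0.83), Il1rn (3.02 ± 0.85) and Cd14 (2.91 ± 0.80), and Apcs fell (-1.31 ± 0.31). In the sham state C4b (-5.54 ± 0.83), C3 (-4.41 ± 0.49), Lcn2 (-1.67 ± 0.41) and Serping1 (-1.05 ± 0.23), a C1 inhibitor, were lower in KO and Itih4 was higher (0.76 ± 0.17, limma, adjusted p from 0.00255 to 0.0334). C3, the central complement protein, read 5.94, 5.89 and 5.90 in KO IRI, against 2.44, 3.27 and 2.39 in KO sham, and 7.82, 6.04 and 6.00 in WT IRI, against 6.68, 6.75 and 7.91 in WT sham. As for the fibrinogen chains, its WT groups overlapped and its KO groups did not. In WT, C3 differed by -0.50 ± 0.49 after IRI (adjusted p = 0.547, limma), whereas the fitted difference of each fibrinogen chain was positive. After IRI Hpx, the heme carrier hemopexin, was lower in KO than in WT (-0.93 ± 0.19, adjusted p = 0.0413, limma).

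Negative acute-phase genes, which the liver turns down in an acute-phase response, did not fall as a group. Of 10 tested, 4 rose and 1 fell after IRI in KO, and 3 rose and none fell in WT. Trf, transferrin, rose by 2.08 ± 0.40 in KO and 2.35 ± 0.40 in WT, Apoa1 by 1.79 ± 0.33 and 1.15 ± 0.33, and Rbp4 by 1.06 ± 0.14 and 0.64 ± 0.14, with adjusted p from 0.00391 to 0.0476 (limma). Serpina6 rose in KO by at least 1.17-fold (adjusted p = 0.0281, limma) and Ttr, transthyretin, fell there (-1.46 ± 0.20, adjusted p = 0.00506). In the sham state Alb (1.23 ± 0.18), Ttr (1.07 ± 0.20) and Fetub (0.76 ± 0.16) were higher in KO, and after IRI Rbp4 was (0.81 ± 0.14, limma, adjusted p from 0.00517 to 0.0183).

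Among 15 receptors and clearance genes for haptoglobin, serum amyloid, fibrinogen and lipopolysaccharide, 1 rose and 2 fell after IRI in KO, and 5 rose and 2 fell in WT. Hmox1, which degrades heme, rose in both (2.25 ± 0.51 in KO, 1.92 ± 0.51 in WT), while the fibrinogen-binding integrin subunit Itgam (-2.11 ± 0.41 in KO, -1.75 ± 0.41 in WT) and the lipopolysaccharide co-receptor Ly96 (-1.80 ± 0.37 in KO, -1.54 ± 0.37 in WT) fell in both, with adjusted p from 0.0169 to 0.0385 (limma). In WT Cd14, Cd36 (1.20 ± 0.21), the formyl peptide receptor Fpr2 (1.16 ± 0.12) and Scarb1 (0.54 ± 0.12) also rose. Fpr2, a receptor for serum amyloid A, was lower in KO than in WT after IRI (-1.43 ± 0.12, adjusted p = 0.00156) and in the sham state (-0.64 ± 0.12, adjusted p = 0.0121, limma). In the sham state Itgb2 (-2.10 ± 0.33), Tlr2 (-2.08 ± 0.55) and Icam1 (-1.55 ± 0.42) were also lower in KO, and Cd36 was higher (0.99 ± 0.21).

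Of 11 macrophage markers 1 rose and 5 fell after IRI in WT kidneys, where Saa3 rose, and their summed linear level was 184.3 to 282.2 in WT IRI, against 274.5 to 304.5 in WT sham. The marker that rose was Cd68, a lysosomal protein, by 1.93 ± 0.34 in KO and 1.46 ± 0.34 in WT (adjusted p = 0.0123 for KO, 0.02395 for WT, limma). With 1 array left out, the count that fell in WT ranged from 1 to 8. In KO 1 rose and 1 fell, with sums of 131.1 to 162.5 in KO IRI, against 166 to 189 in KO sham. The macrophage sums rest mostly on the brightest probe, Ly6c2, which was not called (-0.37 in WT, adjusted p = 0.2043, and -0.34 in KO, 0.3101, limma). The mean log2 level of the 11 was 1.21 to 1.40 in WT IRI, against 1.92 to 2.11 in WT sham. In KO IRI it was 0.85 to 1.34, against 0.72 to 1.36 in KO sham. In the sham state 5 of the 11 were lower in KO than in WT, among them Aif1 (-1.93 ± 0.30) and C1qa (-1.78 ± 0.25, limma), and with 1 array left out that count ranged from 4 to 8. Of 7 erythrocyte markers tested 4 rose in WT, among them the hemoglobin chain Hbb-b1 (2.74 ± 0.43, adjusted p = 0.006033, limma), and none was called in KO. The other 3 did not pass in WT, with -2.04 for Slc4a1 (adjusted p = 0.1757), -0.75 for Epb42 (0.2562) and no fold for Ahsp (0.1023, limma), which was below background on all WT arrays. Their part in the acute-phase readings was not tested.

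Across the 12 arrays Pearson's r between members was high within the clusters, and between some members of different clusters as well. It was 0.98 between Saa1 and Saa2, 0.98 between Fga and Fgb, 0.97 between Fgb and Fgg, 0.96 between Fga and Fgg and 0.91 between Orm1 and Orm2. Orm1 was above background on 4 of the 12 arrays, Orm2 on 5 and Saa3 on 9, so their values include dim signals. The Orm1 signal cannot be given to Orm1 alone, and reading of each other's transcript by the Saa1 and Saa2 probes was not tested. Saa3 gave 0.92 with Saa2 and 0.85 with Saa1, against 0.93 with Fgg and 0.89 with Fgb. Pearson's r was 0.27 between Orm1 and Lbp, the lowest of all pairs of members. All these values share the same 12 arrays, 2 slides and the IRI and sham contrast, and they are descriptions. Among all genes with an ordinary symbol, the most similar to Saa1 were Tmbim1 (0.987) and Capn2 (0.987), to Saa2 Plpp5 (0.985) and Saa1, and to Saa3 Meltf (0.975) and Entpd1 (0.972). Those most similar to Fga were Arntl (0.983) and Fgb, to Fgb the transcription factor gene Jun (0.991) and Fga, and to Fgg Nrg1 (0.992) and Jun (0.975). For Hp they were Sprr2f (0.922) and Rrad (0.920), for Orm1 Zfp384 (0.935) and Nnat (0.934), for Orm2 Nnat (0.939) and Speer4a (0.929), and for Lbp Pld2 (0.951) and Acot1 (0.950).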

How the data were processed

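Spot intensities came from 12 single-colour Agilent arrays (Cy3), deposited as scanner output that the file headers ascribe to Feature Extraction 10.7.1.1. Its processed signal is a linear intensity, per the file headers, background-corrected and detrended within each array by the scanner software and not scaled between arrays. The authors also deposited a table of log2 values for the same arrays, with no scaling stated in the sources used here. It tracked the log2 processed signal closely within each array and served as an alternative. The submitters' processing notes name limma. The scanner's flag for a spot well above background was used as deposited.

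Here log2 signals were set relative to each array's 75th percentile, outlier-flagged and control spots were dropped, and spots of a probe were averaged. Probes well above background on at least 3 arrays were kept (39449), with the brightest kept probe standing for a gene. Gene names were updated through RefSeq accessions for 32994 probes, and 23611 kept the file's name. The 10 acute-phase genes were found by the file's own gene name. One model with 4 group means was fitted over all 12 arrays with limma 3.58.1 in R 4.3.3 (8 residual degrees of freedom, moderated by the empirical Bayes step), and p-values were two-sided and Benjamini-Hochberg adjusted over 25947 genes, with a threshold of 0.05. The number of arrays limits the precision.

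Where no array of a group was well above background, a fold is given as a bound against the dimmest probes counted as above background on those arrays. The fit was tested on simulated data. The 10 genes, the other gene lists and the rule for naming list genes (up to 6 called genes per list and comparison, by size of change, and the 2 genes most correlated with each member) were chosen with earlier results of these data known. Alternatives were another background correction, normalization, filter, probe rule, array weights, the groups fitted, a replicate block and leaving out arrays. The lists were acute-phase inducers, other positive and negative acute-phase genes, receptors, and markers of hepatocytes, kidney epithelium, neutrophils, macrophages, adipocytes, platelets and erythrocytes.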

Additional observations from a re-analysis of the deposited data

How the results depend on the processing

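No member changed direction among called values under any alternative, and 217 of 240 refitted member values in WT IRI over sham and 215 of 240 in KO IRI over sham stayed on their side of the threshold. These totals include the fit with the slide as a block, which repeats the main fit within a genotype by construction. The count of members called in WT IRI over sham (6) was 2 with only the 2 WT groups fitted, 10 with array weights, and 3 to 7 with 1 array left out. Of all 25947 genes 3109 were called in the main fit, 417 with only the 2 WT groups and 8922 with array weights. With 1 array left out 846 to 4675 were called. In KO IRI over sham (5) the count of members was 8 with array weights and 3 to 7 with 1 array left out. Of all genes 1598 were called in the main fit, 5756 with array weights and 454 to 3252 with 1 array left out. In KO sham over WT sham (2) the count of members was 1 without a filter on dim probes, 1 with only the 2 sham groups, 4 with array weights, 1 with the replicate number as a block, 1 without KO sham replicate 2 and WT IRI replicate 2 together, and 1 to 3 with 1 array left out. Saa3 was called in each of these fits. Of all genes 2297 were called in the main fit. In the same order of settings 1620 (of 37325), 4042, 9669, 1782, 1551 and 649 to 4405 were called. In KO IRI over WT IRI (0) the count of members was 1 under normexp correction, 1 with array weights, 1 without WT sham replicate 3 and WT IRI replicate 1 together, and 0 to 1 with 1 array left out, and for the difference of responses (0) it was 1 under quantile normalization, with the authors' log2 values, with array weights and without that pair, and 0 to 1 with 1 array left out, each time Saa3. Of all genes 501 were called in KO IRI over WT IRI in the main fit. In the same order of settings 332, 2034, 826 and 146 to 971 were called. For the difference of responses 18 were called in the main fit. The other fits, in that order, called 20, 20, 1353, 315 and 4 to 148. The cause of these shifts was not tested; omitting arrays leaves fewer samples. The 2 omissions of array pairs were chosen after seeing the data.

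Among the gene lists, the other positive acute-phase genes called higher in WT ranged from 3 (only the WT groups) to 12 and in KO from 4 to 11, and the inducers from 0 to 13 in WT and 0 to 8 in KO, the highest with array weights. Of all genes, 204 (only the WT groups) to 4457 (array weights) were called higher in WT. In KO the range was 150 to 2037 (array weights). Whether replicate numbers pair the arrays cannot be settled with 3 arrays a group. Deviations of same-numbered arrays correlated between -0.267 and 0.151, and no comparison had all 3 pairs above 0.1. The replicate block changed no other count of members called. The slide as a block gives the same values within a genotype by construction and cannot be fitted between genotypes, and each scan held 1 slide, so neither was tested for KO over WT. Dim signal limits Saa3 in KO sham and the orosomucoids outside WT IRI, where only bounds hold.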
